A study of Mus musculus with 2 samples.

Results

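Cytosolic ribosomal protein genes were examined in mouse bone marrow stromal cells after total body irradiation. The family was taken as every gene of the deposited value table whose annotated symbol begins with Rpl or Rps followed by a digit, an a or p0 to p2, without the Rps6k kinases and without pseudogenes. This gave 58 genes of 16446 named genes, carried by 61 probes, with 35 large subunit (Rpl) and 23 small subunit (Rps) symbols. A RefSeq gene table held 89 protein-coding symbols that fit the same rule, and for 31 of these, including Rpl3, Rplp0, Rplp2 and Rps6, no probe was named here. Of the 58 genes, 53 encode proteins of the standard ribosome. The other 5 were the paralogs Rpl3l, Rpl7l1, Rpl22l1 and Rps27l, and Rps19bp1, which encodes a binding partner of Rps19 and not a ribosomal protein.

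The animals were C57BL/6 mice with no transgene named. The irradiated groups were marrow stromal cells taken 1 day and 3 days after 9.5 Gy, each on 1 two-colour array with irradiated RNA in Cy3, and the unirradiated stromal cells in Cy5 on both arrays were their control. Per the series description 6 mice were used, with no statement of how many went into each group or pool. No source used here describes the isolation of the stromal cells. Each value below is the log2 of the ratio of the 2 colours of an array, averaged over the probes of a gene, with the median over all named genes set to 0. With 1 array for each time point and no dye swap used here, no value has a replicate error and no test was possible. A gene is called lower or higher by size alone, at a log2 ratio of -1 or less or of 1 or more, which is 2-fold.

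The numerator of the ratio and the base of the logarithm were not stated. A positive value was taken to mean more of the transcript after irradiation because the targets of p53, a factor that radiation activates, had a median log2 ratio of 1.60 at day 1 and 0.79 at day 3, above the medians of mitotic genes (0.88 and -3.17) on each array. This direction is likely and not established. If it were the other way round, every "lower" and "higher" would be exchanged. Cell type markers differed widely on the same arrays. All 15 granulocyte markers measured at day 1 exceeded 2-fold, with values from 4.07 to 8.28 and a median of 6.02, and at day 3 the median of 12 was -1.49. Erythroid markers had medians of -3.70 over 8 genes at day 1 and -2.31 over 10 at day 3, and stromal markers -1.10 and -0.0095 over 10 genes each. Endothelial markers had medians of 0.66 and 2.03 over 8 genes, with 3 of 8 at least 2-fold higher at day 1 and 8 of 8 at day 3. The values are ratios, so they do not show which cells the samples held, and the part of a changed cell mixture in the results below was not tested.

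The cytosolic ribosome makes nearly all cellular proteins, and most of its own proteins are present in a single copy in every particle. Their mRNAs are among the most abundant of a cell. They carry a terminal oligopyrimidine (TOP) tract at the 5′ end, through which mTOR and the RNA-binding protein Larp1 control their translation together. In bone marrow, loss of 1 copy of certain ribosomal protein genes causes Diamond-Blackfan anaemia in humans, and free Rpl5 and Rpl11 are known to bind Mdm2 and so to stabilise p53.

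Ribosomal protein genes stood a little below the average gene at both times and lay close to each other. At day 1, 55 of the 58 genes had a ratio, with a median log2 ratio of -0.51, or 1.42-fold lower, and a middle range between quartiles of -0.68 to -0.30. At day 3, 56 had a ratio, with a median of -0.53, or 1.44-fold lower, and quartiles of -0.74 and -0.36. The quartiles of all named genes lay at -0.57 and 0.75 at day 1 (10451 genes) and at -0.41 and 0.42 at day 3 (11429 genes). The family thus filled a narrower range than the array as a whole, but this was not particular to it. Its range between quartiles was 0.39 at day 1 and 0.38 at day 3. For 14 other mRNAs known to carry a TOP tract it was 0.28 and 0.32, and for mitochondrial ribosomal proteins 0.48 and 0.41. The family median lay above 27.6% of all genes at day 1 and above 19.7% at day 3. Because these are bulk samples, fewer cells of a type and less RNA per cell cannot be told apart.

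At day 1, 49 of 55 members were below 0, where 50% of all genes were by construction, and 28 were at -0.5 or less, where 27.9% of all genes were. At 0.5 or more were 3 members, against 31.5% of all genes. At day 3, 53 of 56 were below 0 (background 50%) and 33 were at -0.5 or less (background 20.8%), and 1 was at 0.5 or more (background 21.3%). The shift was thus widespread but small. Only 3 of 55 members were at least 2-fold lower at day 1, against 11.1% of all genes, and 1 was at least 2-fold higher, against 19.6%. At day 3, 3 of 56 were at least 2-fold lower, against 6.84% of all genes, and 0 were at least 2-fold higher, against 7.37%. The shares past 2-fold did not exceed the background of their array. With the peak of the density of all genes set to 0, which raised all genes by 0.19 at day 1, the day 1 median was -0.32 and 13 members were at -0.5 or less. On that scale 44 members remained below 0 at day 1, and Rpl28, Rps9, Rps15a, Rps25 and Rps27 stood between 0.0072 and 0.12.

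**Figure D1:**
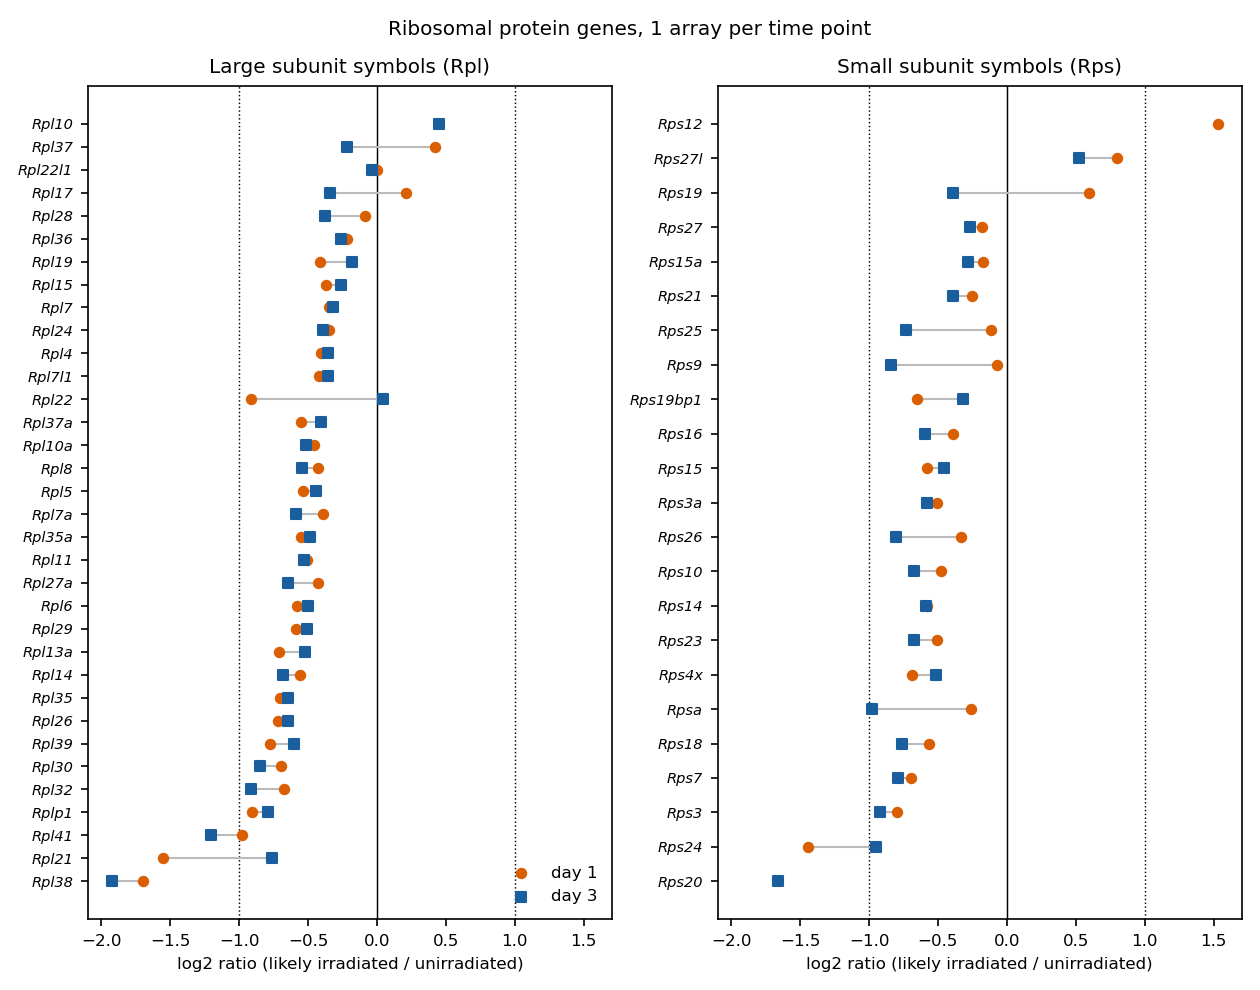
Log2 ratio of each ribosomal protein gene (x axis, likely irradiated over unirradiated) at day 1 (circles) and day 3 (squares), with large subunit symbols on the left and small subunit symbols on the right, ordered by their mean. Dotted lines mark 2-fold. Most genes lie between -1 and 0, Rpl38 is lowest at -1.70 and -1.93, and Rps12, with a day 1 value of 1.53, is the 1 gene beyond 2-fold higher.

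A few genes (3) had 2 probes each, and these give the only measure of technical spread within the family. Rpl5 probes read -0.47 and -0.60 at day 1 and -0.32 and -0.56 at day 3. Rpl26 probes read -0.64 and -0.79 at day 1 and -0.48 and -0.81 at day 3. Rpl37a probes read -0.67 and -0.44 at day 1 and -0.56 and -0.25 at day 3. All of these probe values were below 0. The pooled SD between probes of a gene was 0.12 at day 1 and 0.21 at day 3 over these 3 genes, against 0.78 over 69 genes and 0.57 over 91 genes of the whole array. Variation among animals, cell isolations or arrays is not part of this SD.

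The medians of large and small subunit genes were in opposite order at the 2 times. At day 1 the 33 large subunit genes with a ratio had a median of -0.54, from -1.70 (Rpl38) to 0.42 (Rpl37), and the 22 small subunit genes had a median of -0.43, from -1.45 (Rps24) to 1.53 (Rps12). The difference of medians, large minus small, was -0.10. At day 3 the 34 large subunit genes had a median of -0.51, from -1.93 (Rpl38) to 0.45 (Rpl10), and the 22 small subunit genes a median of -0.63, from -1.66 (Rps20) to 0.53 (Rps27l). The difference was 0.13. The range between quartiles was 0.31 and 0.30 for the large and 0.41 and 0.39 for the small subunit at days 1 and 3. With 1 array per time point, neither difference could be tested.

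At day 1, 18 of 33 large subunit genes and 10 of 22 small subunit genes were at -0.5 or less, against 27.9% of all genes. At day 3 these were 18 of 34 and 15 of 22, against 20.8% of all genes. At least 2-fold lower were 2 large and 1 small subunit gene on each array, shares below the 11.1% and 6.84% of all genes. Using means, the day 1 difference was -0.25, since Rps12, Rps27l and Rps19 lay at the top of the small subunit. The genes compared differ between the days, since Rps12 had no ratio at day 3 and Rps20 and Rpl10 none at day 1. With only genes measured on both arrays, the difference of medians was -0.060 at day 1 and 0.086 at day 3. With only genes of 1 measured probe it was -0.049 and 0.13.

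**Figure D2:**
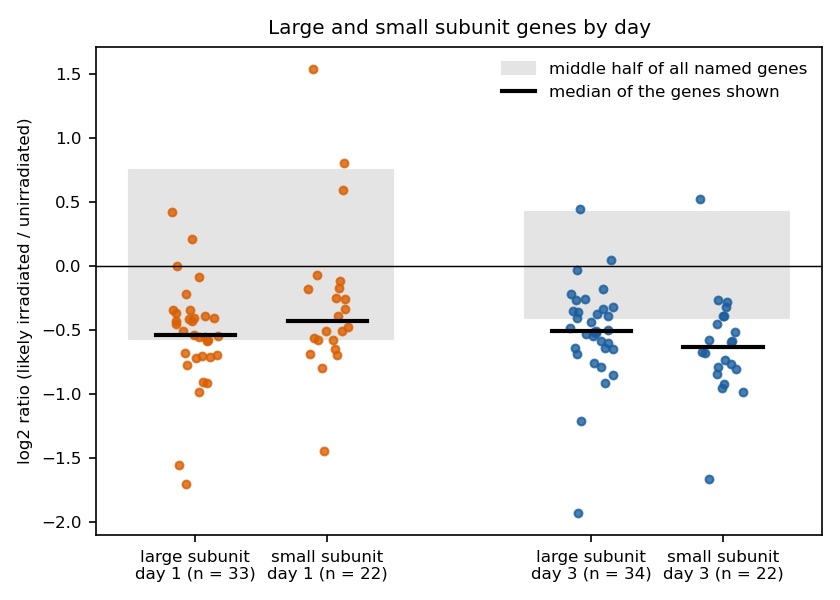
Log2 ratios (y axis, likely irradiated over unirradiated) of large and small subunit genes at day 1 and day 3, 1 point for each gene. Black bars are medians, and grey bands hold the middle part of all named genes between quartiles. The medians are -0.54 for the large and -0.43 for the small subunit at day 1, and -0.51 and -0.63 at day 3.

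In the small subunit, which reads the mRNA, most genes of the head and of the body were below 0. Of the list of head proteins, 8 had a ratio at each time, with medians of -0.43 at day 1 and -0.70 at day 3, and 6 were below 0 at day 1 (5 with the density peak at 0) and 8 at day 3. The list of body proteins gave 13 entries, in which Rps3a was counted again under the symbol Rps3a1. Over these entries the medians were -0.51 and -0.59, and 13 of 13 were below 0 at both times. With the density peak at 0, 10 entries were below 0 at day 1. Medians without the repeated entry were not computed, so those of head and body are not compared. In the head, Rps12 stood at 1.53 at day 1 and had no ratio at day 3. Rps20 had no ratio at day 1 and stood at -1.66 at day 3, or 3.16-fold lower. Rps19, the gene most often mutated in Diamond-Blackfan anaemia, stood at 0.59 at day 1 and -0.39 at day 3. Rps25, needed for translation from several internal ribosome entry sites, stood at -0.12 and -0.73. Rps3, at the mRNA entry channel, stood at -0.80 and -0.92. Head genes were more scattered than body genes at day 1, with a range between quartiles of 0.63 against 0.33 over the 13 body entries.

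In the body of the small subunit, Rps24 was at -1.45 at day 1 and -0.95 at day 3, or 2.72-fold and 1.93-fold lower. Rpsa, also known as the laminin receptor, was at -0.26 and -0.98. Rps9 was at -0.07 and -0.84, and Rps26, which touches the mRNA at its exit, at -0.34 and -0.80. Rps14, the gene of the human 5q- syndrome, was at -0.58 and -0.59. Rps24 was thus the lowest small subunit gene at day 1, and Rpsa, Rps9 and Rps26 were lower at day 3 than at day 1.

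In the large subunit, which forms peptide bonds, Rpl38 was lowest on each array, at -1.70 at day 1 (3.25-fold lower) and -1.93 at day 3 (3.80-fold lower). In mice, Rpl38 is known for its part in the translation of Hox mRNAs in the embryo. Rpl41, the smallest ribosomal protein, was at -0.98 at day 1 and -1.21 at day 3. Rpl21 was at -1.56 at day 1 and -0.76 at day 3. Both Rpl38 and Rpl41 were in the lowest 4 members at each time, while Rpl21 was among them at day 1. Of 8 proteins listed around the exit tunnel, 7 were below 0 at each time, with medians of -0.71 and -0.48, and Rpl17 was at 0.21 at day 1 and -0.34 at day 3. Rplp1, of the stalk that recruits elongation factors, was at -0.91 and -0.79. Rpl10, which helps the subunits join, had no ratio at day 1 and was at 0.45 at day 3, while Rpl37 was at 0.42 and -0.22. Rpl19 was at -0.41 and -0.18, and Rpl13a, known for a second role in silencing inflammatory mRNAs, at -0.71 and -0.52.

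The remaining large subunit genes kept to a narrow band. Around the exit tunnel, Rpl4 was at -0.41 and -0.35, Rpl39 at -0.77 and -0.61, Rpl26 at -0.72 and -0.64, and Rpl35, where the signal recognition particle docks, at -0.70 and -0.64 (day 1 and day 3). Rpl8, near the site of peptide bond formation, was at -0.43 and -0.55. Rpl24, at a bridge to the small subunit, was at -0.35 and -0.39, and Rpl30 at -0.70 and -0.85. Rpl32 was at -0.68 and -0.91, and Rpl14 at -0.56 and -0.68. The weakest shifts were in Rpl28 (-0.08 and -0.38), Rpl36 (-0.22 and -0.26), Rpl7 (-0.35 and -0.32) and Rpl15 (-0.37 and -0.26). Rpl6, Rpl7a, Rpl10a, Rpl27a, Rpl29 and Rpl37a lay between -0.39 and -0.59 at day 1 and between -0.41 and -0.65 at day 3. None of these genes was past 2-fold or above 0 on either array, except that Rpl28 turned to 0.11 at day 1 with the density peak at 0.

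The remaining small subunit genes were also below 0 on both arrays, except that Rps15a turned to 0.020 at day 1 with the density peak at 0. Rps7, which can bind Mdm2, was at -0.70 and -0.79, and Rps18, in the head, at -0.56 and -0.76. Rps23, at the decoding centre, was at -0.51 and -0.68, Rps10 at -0.48 and -0.67 and Rps16 at -0.39 and -0.59. Rps4x, an X-linked gene, was at -0.69 and -0.52, Rps15 at -0.58 and -0.45, and Rps3a at -0.51 and -0.58. Rps15a (-0.17 and -0.28) and Rps21 (-0.25 and -0.39) were nearer to 0 than these.

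Rpl5 and Rpl11, the proteins that carry 5S rRNA and bind Mdm2, lay at the middle of the family. Rpl5 was at -0.54 at day 1 and -0.44 at day 3, and Rpl11 at -0.51 and -0.53. On the same arrays the p53 targets Mdm2 (2.26 at day 1 and 1.06 at day 3) and Cdkn1a (2.23 and 1.90) were at least 2-fold higher. Both belong to the list from which the direction of the ratio was read, so their sign is no separate result. Of the 18 listed Diamond-Blackfan anaemia genes, 12 had a ratio at each time, with medians of -0.52 and -0.59 against -0.51 and -0.53 for the whole family. Of these 12, 11 were below 0 at day 1 (10 with the density peak at 0) and 12 at day 3. Rpl35a, one of them, was at -0.55 and -0.49.

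The paralogs could be set beside their parent genes in 3 pairs. Rps27l, a known p53 target, was at 0.80 at day 1 and 0.53 at day 3, or 1.74-fold and 1.44-fold higher, while Rps27 was at -0.18 and -0.27. The paralog exceeded its parent by 0.99 at day 1 and 0.79 at day 3 on the log2 scale, and Rps27l was the 1 member above 0 on both arrays. Rpl22l1 was at 0.00 and -0.04, while Rpl22, known in mice to hold down Rpl22l1, was at -0.92 at day 1 and 0.05 at day 3. This pair differed by 0.92 at day 1 and -0.08 at day 3 (paralog minus parent). Rpl7l1 was at -0.42 and -0.36, close to Rpl7 at -0.35 and -0.32. Rpl3l, the form of striated muscle, had no ratio on either array, and Rps19bp1 was at -0.65 and -0.32. Rps27 and Rps27l are similar in sequence, as are many ribosomal proteins and their pseudogenes, and cross-hybridisation was not assessed here.

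Between the times the family moved little. For the 54 genes with a ratio at both, the median of day 3 minus day 1 was -0.06, against -0.04 over the 9815 genes with both, and 41 of 54 (75.9%) were within 0.25 of their day 1 value, against 23.3% of all genes. The range between quartiles of this difference was 0.28 for the family and 0.22 for 14 other TOP mRNAs. It was 0.60 for mitochondrial ribosomal proteins and 1.21 for all genes. Both arrays use unirradiated RNA as control and may share it, so their values cannot be taken as independent. By at least 2-fold, 0 members were higher and 0 lower at day 3 than at day 1, where 12.1% and 16.8% of all genes were. At -0.5 or less were 6 members, against 29.9% of all genes, and at 0.5 or more were 2, against 26.7%. The median difference was 0.03 for 33 large subunit genes and -0.14 for 21 small subunit genes, and 16 of 33 and 17 of 21 were below 0, where 52% of all genes were. The 6 largest decreases were in Rps19 (-0.98), Rps9 (-0.77), Rpsa (-0.72), Rpl37 (-0.64), Rps25 (-0.61) and Rpl17 (-0.55). The 6 largest increases, of which the last 2 were within 0.25, were in Rpl22 (0.96), Rpl21 (0.80), Rps24 (0.50), Rps19bp1 (0.33), Rpl19 (0.23) and Rpl13a (0.19). With the density peak of each array set to 0 the median difference of the family was -0.25.

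The members share letters around their start sites that the choice by symbol did not use. RefSeq start-site windows (GRCm38.p6), 250 bases before to 50 bases after the start, were matched to 47 of the 58 genes. A pyrimidine tract was searched as a C followed by at least 6 more C or T on the gene's strand, beginning within 20 bases of the start. It was found at any annotated start in 29 of 47 genes (61.7%), against 23.6% of 27025 genes with a window. On the opposite strand the shares were 21.3% and 26.4%. The motif CTTTCC, which can lie inside such a tract, was found on the gene's strand anywhere in the 300 bases of 40.4% of members and 16.0% of all genes, and on the opposite strand of 21.3% and 16.1%. CCGGAAG, the core bound by ETS-type factors, was found on either strand in 42.6% of members and 9.93% of all genes. Among the 13127 genes with a window that are named on the array, 24.5% held the tract, 16.8% CTTTCC on the gene's strand and 14.7% CCGGAAG. Mitochondrial ribosomal protein genes held the tract in 26.2% and CCGGAAG in 36.9% of 65 genes. In all these shares a gene with several starts counted if any of them had a match. Counted by single windows, the tract was in 51.7% of 58 member windows and 20.9% of all 32851 windows. CTTTCC was then in 37.9% and 14.1%, and CCGGAAG in 36.2% and 8.86%. These are matches of letters and not measured start sites. The motifs were chosen after the windows had been read.

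The windows below run 20 bases to each side of the annotated start, with the tract in capitals, for members with a long tract (Rpl35 and Rpl27a), the low members (Rpl38, Rps24 and Rpl41) and the pair of Rps27 and its paralog. Their positions are chr2:39005112-39005151 on the minus strand for Rpl35, chr7:109519175-109519214 on the plus strand for Rpl27a, chr11:114668560-114668599 on the plus strand for Rpl38, chr14:24490658-24490697 on the plus strand for the first start of Rps24, chr10:128549149-128549188 on the minus strand for Rpl41, chr3:90213629-90213668 on the minus strand for Rps27, and chr9:66946066-66946105 on the plus strand for the first start of Rps27l.
Rpl35: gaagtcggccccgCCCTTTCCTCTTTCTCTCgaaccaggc
Rpl27a: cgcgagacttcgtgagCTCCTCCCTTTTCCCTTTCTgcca
Rpl38: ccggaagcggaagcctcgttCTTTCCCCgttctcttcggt
Rps24: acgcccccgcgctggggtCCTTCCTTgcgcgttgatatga
Rpl41: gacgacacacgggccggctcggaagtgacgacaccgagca
Rps27: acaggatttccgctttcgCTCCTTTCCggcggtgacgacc
Rps27l: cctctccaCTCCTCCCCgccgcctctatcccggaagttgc
Low members thus include windows with the tract (Rpl38 and Rps24) and without it (Rpl41), and Rps27l, above 0 on both arrays, also holds one. Members with a tract had a median of -0.41 (29 genes) and those without one -0.57 (16 genes) at day 1, and both had medians of -0.52 at day 3 (28 and 17 genes).

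**Figure D3:**
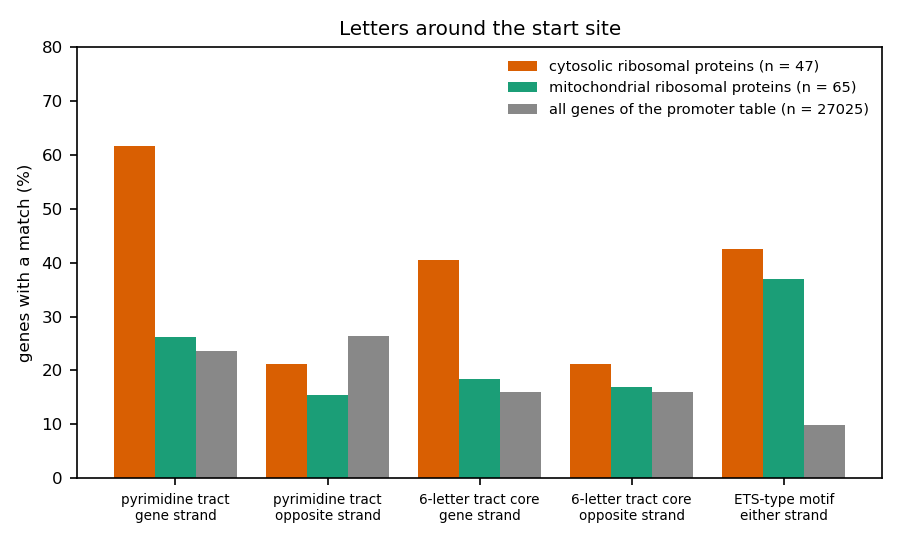
Share of genes (y axis, percent) with a match around the start site, for cytosolic ribosomal protein genes, mitochondrial ribosomal protein genes and all genes of the promoter table; the tract core is CTTTCC and the ETS-type motif CCGGAAG. The tract on the gene's strand is at 61.7% for cytosolic ribosomal proteins and 23.6% for all genes, while on the opposite strand the shares are 21.3% and 26.4%.

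Mitochondrial ribosomal proteins also had medians below 0. They are made in the cytosol and build the ribosomes of mitochondria. Their median was -0.42 at day 1 over 69 genes and -0.41 at day 3 over 71, against -0.51 and -0.53 for the cytosolic family. With the density peak at 0 the day 1 medians were -0.23 and -0.32. At least 2-fold lower were 7 at day 1, against 11.1% of all genes, including Mrps25 (-1.65) and Mrpl55 (-1.35), and 5 at day 3, against 6.84%, including Mrps28 (-1.19) and Mrpl18 (-1.12). At least 2-fold higher were 0 at day 1, against 19.6% of all genes, with Mrps15 (0.51) and Mrpl47 (0.48) highest. At day 3 there was 1, Mrps6 (1.17), against 7.37% of all genes, followed by Mrps31 (0.37). The difference between the families was not tested, since each time point has 1 array.

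**Figure D4:**
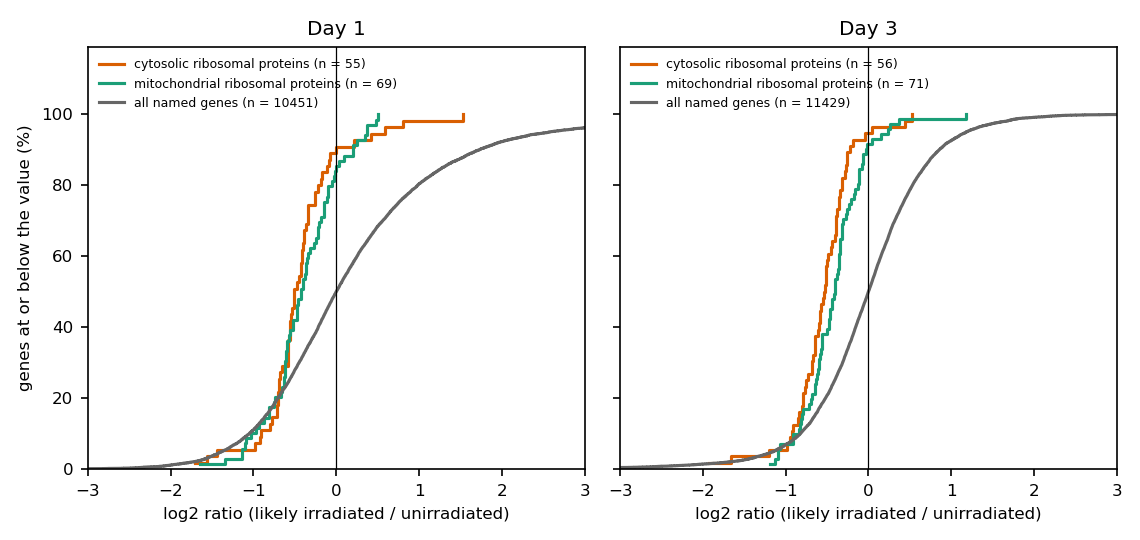
Cumulative share of genes (y axis, percent) at or below each log2 ratio (x axis, likely irradiated over unirradiated) for cytosolic ribosomal proteins, mitochondrial ribosomal proteins and all named genes, at day 1 and day 3. The axis is limited to the central range of values. The medians of both ribosomal families lie left of that of all genes, at -0.51 and -0.42 at day 1 and -0.53 and -0.41 at day 3. In the low tail this does not hold throughout. At -1 or less were 5.45% of cytosolic and 10.1% of mitochondrial ribosomal proteins at day 1, against 11.1% of all genes. At day 3 these shares were 5.36% and 7.04%, against 6.84%.

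Factors that assemble ribosomes in the nucleolus were also below 0, with medians of -0.36 over 66 genes at day 1 and -0.47 over 65 at day 3. The day 1 median was -0.17 with the density peak at 0. Of these genes, 6 were at least 2-fold lower at day 1, against 11.1% of all genes, and 11 at day 3, against 6.84%. At least 2-fold higher were 0 at either time, against 19.6% and 7.37%. Rrp9 (-2.08) and the helicase Ddx49 (-1.92) were lowest at day 1, with Riok1 (0.85) and Nhp2 (0.73) highest. The rRNA methyltransferase gene Fbl (-1.52) and Nhp2 (-1.37) were lowest at day 3, with Sbds (0.78) and Nop14 (0.34) highest. The list of RNA polymerase I subunits and factors, which make rRNA, had medians of -0.08 at day 1 and -0.33 at day 3 over 16 genes. The day 1 median turned to 0.11 with the density peak at 0. Of these 16, 2 were at least 2-fold lower at day 1, against 11.1% of all genes, and 1 higher, against 19.6%. At day 3, 1 was lower, against 6.84%, and 0 higher, against 7.37%. Polr2h (-1.13) and Polr2f (-1.09), subunits shared among polymerases, were lowest at day 1, and the initiation factor Rrn3 (-1.03) and Polr1e (-0.87) at day 3. Taf1d was highest at both, at 1.44 and 0.97, followed by Twistnb (0.50) at day 1 and Taf1b (0.23) at day 3.

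Translation factors lay closer to the median of all genes than ribosomal proteins did. Initiation factors had medians of -0.24 over 33 genes at day 1, or -0.05 with the density peak at 0, and -0.25 over 34 at day 3. They had 2 genes at least 2-fold lower (Eif3i at -1.09 and Eif2b3 at -1.01) and 2 higher (Eif5 at 1.39 and Eif4g2 at 1.34) at day 1, and 0 in either direction at day 3, where Eif3b (-0.93), Eif3i (-0.82), Eif3e (0.83) and Eif4a2 (0.75) were outermost. The short list of elongation and termination factors had medians of -0.36 over 10 genes at day 1, or -0.17 with the density peak at 0, and -0.39 over 11 at day 3. At day 1, 1 was at least 2-fold lower, Eef1a2, which lay at the threshold, and 1 higher, the termination factor Etf1 (1.61), which was at 0.11 at day 3. At day 3, 2 were at least 2-fold lower, Eif5a (-1.10) and Eef1e1 (-1.03), and 0 higher. Other mRNAs known to carry a TOP tract had medians of -0.21 at day 1, or -0.018 with the density peak at 0, and -0.23 at day 3 over 14 genes, with 0 past 2-fold at either time. Among these, Eef1a1, which brings tRNA to the ribosome, was lowest at -0.89 and -0.73. Pabpc1 was highest at day 1, at 0.95, and stood at 0.0014 at day 3, while Eif3e was at 0.83 on both arrays. Fau, a ribosomal protein gene outside the naming rule, was at 0.69 at day 1 and -0.10 at day 3, and no probe was named for Rack1.

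The list of regulators of ribosome production, which holds both activators and repressors, had medians of 0.13 over 22 genes at day 1 and 0.27 over 23 at day 3. At day 1, 5 were at least 2-fold higher, against 19.6% of all genes, and 0 lower, against 11.1%. The Myc antagonist Mxd1 was at 5.26 and Max, the partner of both, at 1.66, while Myc itself was lowest at -0.90, level with Akt1s1 (-0.90). The other regulators at least 2-fold higher were Mycn (1.43), Mxi1 (1.25) and Eif2ak2 (1.13), while Mxd4 was at -0.44. The values thus do not show 1 direction for the Myc network. Mxd1 is also active in granulocytes, whose markers had a median of 6.02 on this array, and their part in its value was not tested. At day 3, 3 were at least 2-fold higher, against 7.37% of all genes, including Eif2ak2 (1.95), the interferon-induced kinase that blocks initiation, and Ddit4 (1.42), an mTOR inhibitor. The 1 regulator at least 2-fold lower, against 6.84% of all genes, was Eif4ebp1 (-1.29), a translation repressor downstream of mTOR. Myc was at 0.14.

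**Figure D5:**
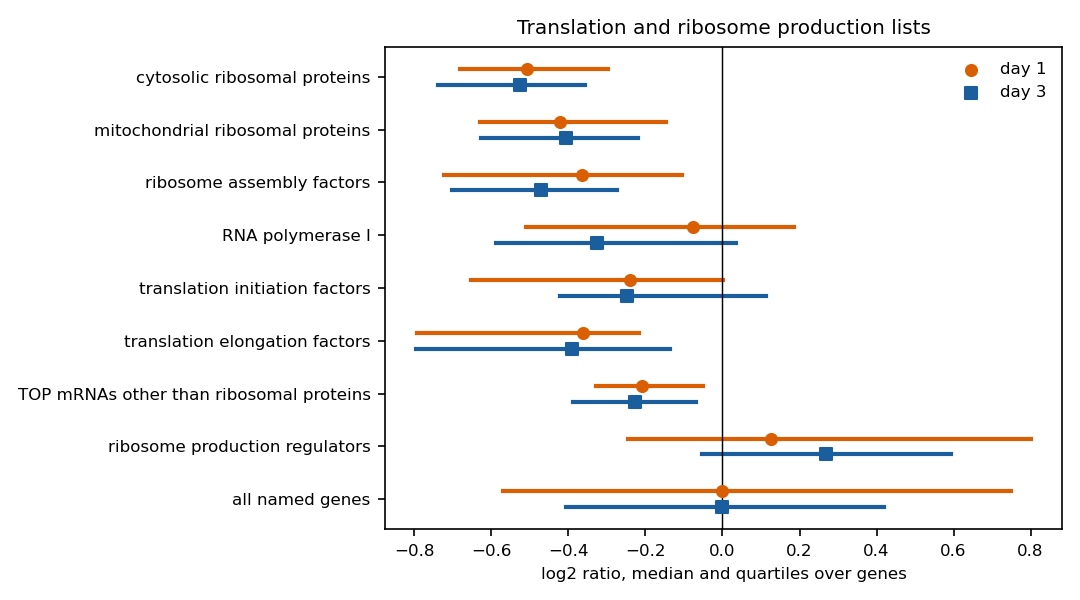
Median log2 ratio (points) and quartiles over genes (lines) for ribosomal proteins, lists of ribosome production and translation, and all named genes, at day 1 (circles) and day 3 (squares), with the ratio likely irradiated over unirradiated. Cytosolic ribosomal proteins have the lowest medians of the lists shown, -0.51 and -0.53, and regulators of ribosome production the highest, 0.13 and 0.27.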

How the data were processed

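The authors deposited 1 log ratio per probe and array, read here as log2; the series' value table holds these for 23473 probes. Amino allyl aRNA was coupled to the dyes, per the labels' protocols. Scanner, background correction, normalisation, the base of the logarithm and the reason for empty entries (9515 probes at day 1 and 8056 at day 3) are not stated in any source used. The authors' values came centred (column medians 0.000348 for day 1, -0.000132 for day 3). No intensities were used, so signal over background is unknown, and with so few arrays precision is limited.

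Gene symbols came from the platform annotation (16631 probes). Probes of a gene were averaged and each array's gene median subtracted (-0.0117 at day 1 and 0.0161 at day 3). Symbols of list genes were matched through RefSeq (GRCm38.p6). No p-value was computed, since there is 1 array per group. The members and lists were chosen with earlier results of these data known. Named members were the outermost 6 in each direction per array and between days, those beyond 2-fold, paralog pairs and a short set of well-known genes; from other lists of the translation machinery, the outermost genes. Alternatives covered centring, probe handling, symbols, membership, summary and size rule. The summaries were tested on simulated data. Python 3.11.15, pandas 2.3.3 and SciPy 1.17.1 were used.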

Additional observations from a re-analysis of the deposited data

Results flagged for a closer look

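Some values had opposite signs at day 1 and day 3. With 1 array per time point, none of these differences was tested. Rpl22 was at -0.92 at day 1 and 0.047 at day 3. Rps19 was at 0.59 at day 1 and -0.39 at day 3, Rpl37 at 0.42 and -0.22, and Rpl17 at 0.21 and -0.34. Rpl22l1 lay at the median of the array on both, at 4.94e-06 and -0.036. Fau, the 1 measured ribosomal protein gene under another name, was at 0.69 at day 1 and -0.10 at day 3.

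Among the lists set beside the family, the median of mitotic genes was 0.88 at day 1 and -3.17 at day 3. The median of granulocyte markers was 6.02 and -1.49, and that of pan-leukocyte markers 5.35 and -0.24.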

How the results depend on the processing

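Of 120 values recomputed under alternatives, 112 stayed within the spread between probes of a member gene or within 1.5 times the count. The medians and differences among the 120 kept their sign. That spread was 0.12 at day 1, 0.21 at day 3 and 0.093 for day 3 minus day 1. It exceeds large minus small subunit at each time (-0.10 and 0.13) and the family's median difference between days (-0.06). These results could fall to 0 and still count as unchanged, so the 112 says little about them. Counts cannot change sign, and a new centre leaves large minus small subunit unchanged by construction. Single genes and the other lists were not among the 120, and some of these changed sign with the density peak at 0, as given above. The family median ranged from -0.52 to -0.32 at day 1 and from -0.56 to -0.51 at day 3. With the density peak at 0, the day 1 median was -0.32, members at -0.5 or less at day 1 were 13, and the median of day 3 minus day 1 was -0.25; the peak lay at -0.19 at day 1, which accounts for these by construction. With 1.5-fold as the size rule, 17 members were lower and 3 higher at day 1, and 25 lower at day 3. The share of all genes past 1.5-fold was not computed, so these counts are not read as a trait of the family. Keeping only genes measured at both times left 0 members past 2-fold higher at day 1, because Rps12 drops out. Large minus small subunit ranged from -0.25, with means, to -0.049 at day 1, and from 0.086 to 0.16 at day 3. No paired analysis was possible because each group has 1 array. Neither signal over background nor replicate error could be examined.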

Other observations

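Ribosomal protein genes were short. The median span of the 58 genes in RefSeq was 3391 bases, against 20769 bases for 16381 named genes with a span, and they lay on 18 chromosomes. A few more genes fitted the naming rule only under a current symbol. Rpl34 was at -0.67 at day 1 and -0.63 at day 3, within the range of the family, and the paralog Rpl39l was at -1.50 and 0.090. Rps4l was at -0.69 and -0.034.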
